A study of Bactrocera oleae with 8 samples.

Results

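The 3 contigs (assembled transcript sequences) of the olive fruit fly *Bactrocera oleae* that carry names of lipid metabolism enzymes were followed across 3 feeding regimes of its larvae: green olives, black olives, or an artificial diet. They were contig01313, named 3-hydroxyacyl-CoA dehydrogenase, contig04753, named phospholipase A1 member A, and contig04780, named 3-oxoacyl-acyl-carrier-protein reductase. They were found by their exact contig name and make up 3 of the 20516 contig entries on the array, and no entry for the reverse strand of any of them was present. All 3 were described by the study because they were called different between green and black olives, and contig04780 also between black olives and artificial diet, so these contrasts are given as a description. Green olives against artificial diet was not used in that choice, but it shares the green olive side with the others.

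RNA came from pools of 20 whole second instar larvae. Green and black olive larvae were dissected from infested fruit of a single orchard, green in September and black in January. The artificial diet larvae hatched in the laboratory from eggs of females that had emerged from pupae of the same orchard, so diet, season and rearing cannot be told apart. Each regime is set out as 4 biological replicates on 8 two-colour Agilent arrays of a single slide. Green olive larvae were always labelled with Cy5. Cy3 carried black olive larvae on 4 arrays and artificial diet larvae on the remaining 4. Every difference between green olives and another regime therefore includes any difference between the dyes, whereas black olives and artificial diet carried the same dye and were compared through the green olive channel. In RNA of whole larvae, fewer cells of a type and less RNA per cell cannot be told apart.

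Fatty acids are released from stored and dietary lipids by lipases, which include the phospholipases A1 that cut an acyl chain from a phospholipid. They are then shortened in the mitochondria and peroxisomes by β-oxidation, in which 3-hydroxyacyl-CoA dehydrogenases oxidize the hydroxyl group of the chain. Synthesis runs in the opposite direction from acetyl-CoA, and a 3-oxoacyl-acyl-carrier-protein reductase reduces the keto group after each elongation. In animals the bulk of this synthesis is carried out by a large fatty acid synthase, and separate reductases of this name belong to the short-chain dehydrogenase family. The enzyme names rest on sequence similarity alone. For contig04780 the best database hit was a putative alcohol dehydrogenase of the human body louse, for contig04753 a protein of *Drosophila persimilis*, and for contig01313 a hypothetical protein of *B. oleae*.

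The share of spots clearly over background was 60.6 to 64.1% for green olives and 56.9 to 67.2% for black olives. For artificial diet it was 65.5 to 66.9%. The slope of the spike-in log ratios on their known values was 0.631 to 0.674, so the fold changes of these control RNAs were understated on all 8 arrays. Of 30 contigs with housekeeping names, which were not chosen on these arrays, 1 was called in any comparison, namely heat shock protein 23 (contig04923), 2.99 higher on the log2 scale in green than in black olives. An adjusted p-value below 0.05 at any size was reached by 10 of the 30 for green against black olives (limma). For green olives against artificial diet it was 4, and for black olives against artificial diet 1. The median log2 fold change of the 30 contigs was -0.04 for green against black olives and 0.04 for both other comparisons. The green olive channels of both sets of arrays fell into pairs. In their deviations from the set's mean over 13979 contigs, each green olive channel of the black olive arrays correlated at 0.721 to 0.9 with a single, different channel of the artificial diet arrays, and at -0.108 or below with the rest. Only 1 of the 4 pairs carried the same replicate number. Within these pairs the green olive levels of the 3 enzyme contigs differed by at most 0.08 (contig01313), 0.04 (contig04753) and 0.08 (contig04780) on the log2 scale, while the 8 channels spanned 0.48, 0.43 and 0.45. The design describes 4 green olive replicates for either comparison. Green olive means are therefore given per set with n = 4, never as 8 samples, although the linear model takes the 8 arrays as independent.

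All 10 probes of the 3 contigs, 4 for contig01313 and 3 for each of the others, were well above background in every channel, and none of their spots was saturated or marked as an outlier. Levels below are normalized log2 intensities averaged over the probes of a contig. They can be compared between regimes for a contig but not between contigs. A contig counted as called where limma gave an adjusted p-value (Benjamini-Hochberg, over all contigs) below 0.05 and the log2 fold change exceeded 1 in size. By this rule 2.25% of all contigs were called between green and black olives, 1.05% between green olives and artificial diet and 0.936% between black olives and artificial diet. By the adjusted p-value alone the shares were 23%, 11% and 4.52%.

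Contig01313, named a hydroxyacyl-CoA dehydrogenase, was lowest in green olive larvae. On the black olive arrays its level was 14.47, 14.76, 14.37 and 14.57 in green olive larvae (mean 14.54 ± 0.17, SD, n = 4) and 15.30, 15.74, 15.60 and 15.89 in black olive larvae (mean 15.63 ± 0.25, SD, n = 4). The groups did not overlap, as for 22.4% of all contigs in this comparison. The log2 ratios of green over black olives on the 4 arrays were -0.83, -0.97, -1.24 and -1.32. The fitted log2 fold change was -1.09 (SE 0.0934, 95% interval -1.30 to -0.87), or 2.13-fold lower in green olives (adjusted p = 0.000435, limma).

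Against artificial diet, contig01313 was again lower in green olives. Green olive larvae had levels of 14.71, 14.29, 14.45 and 14.56 (mean 14.50 ± 0.18, SD, n = 4), all below those of larvae on artificial diet at 15.30, 15.18, 15.12 and 15.49 (mean 15.27 ± 0.16, SD, n = 4). Groups of this comparison were separate in this way for 17.7% of all contigs. The 4 ratios ran from -0.94 to -0.59 and gave a log2 fold change of -0.77 (SE 0.0934, 95% interval -0.99 to -0.56, adjusted p = 0.00362, limma), which passed the threshold on the p-value and not that on the size. This change was at percentile 0.936 of all contigs in the comparison, counted from the lowest.

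In the same-dye comparison black olive larvae exceeded artificial diet larvae in contig01313 by a log2 fold change of 0.32 (95% interval 0.01 to 0.62), which did not pass the test (adjusted p = 0.197, limma). The ratios of both sets of arrays overlapped. Within each pair of green olive channels the ratio was lower on the black olive array. On black olive arrays 1, 2, 3 and 4 it was -0.83, -0.97, -1.24 and -1.32. On the artificial diet arrays paired with them, 3, 1, 2 and 4, it was -0.67, -0.59, -0.89 and -0.94. The order of the levels of contig01313 was thus green olives, artificial diet and black olives from low to high. The difference between the upper neighbours did not pass the adjusted threshold, although its unadjusted interval excluded 0. The model took the 8 arrays as independent, and a fit by the pairs of green olive channels was not made. Both differences that passed the threshold on the p-value set Cy5 against Cy3, and the part of the dyes in them was not tested.

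Contig04753, named a phospholipase, was lowest in black olive larvae. Its level on the black olive arrays was 10.39, 10.73, 10.42 and 10.31 in green olive larvae (mean 10.46 ± 0.18, SD, n = 4) and 9.73, 9.11, 9.39 and 9.58 in black olive larvae (mean 9.45 ± 0.27, SD, n = 4), without overlap, as for 22.4% of all contigs. The log2 ratios on the 4 arrays were 0.66, 1.62, 1.03 and 0.72, so array 2 stood above the other 3. The fitted log2 fold change was 1.01 (SE 0.17, 95% interval 0.62 to 1.40), or 2.01-fold higher in green olives (adjusted p = 0.00491, limma), just beyond the threshold on the size. Without array 2 it was 0.81 and no longer called (adjusted p = 0.0111, limma), and with slide row as a term in the model it was 0.89.

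Green olives and artificial diet overlapped for contig04753. Green olive larvae had levels of 10.73, 10.37, 10.43 and 10.34 (mean 10.47 ± 0.18, SD, n = 4) and larvae on artificial diet 9.96, 10.29, 10.35 and 9.90 (mean 10.12 ± 0.23, SD, n = 4). All 4 ratios were above 0, at 0.77, 0.08, 0.08 and 0.45. The log2 fold change of 0.35 (SE 0.17, 95% interval -0.04 to 0.74) did not pass the test (adjusted p = 0.228, limma), and without array 1 it was 0.20 (adjusted p = 0.564, limma).

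Between black olives and artificial diet the log2 fold change of contig04753 was -0.66 (SE 0.241, 95% interval -1.21 to -0.11), and it did not pass the test either (adjusted p = 0.146, limma). The 4 black olive channels all lay below the 4 artificial diet channels. They are channels of different arrays, and the share of all contigs with such channels was not counted, so this is no evidence of a difference. The ratios of green olives over the other regime, on which the test rests, overlapped between the sets. Such ratios were separate for 15.9% of all contigs. Within each pair of green olive channels the ratio was higher on the black olive array. On black olive arrays 1, 2, 3 and 4 it was 0.66, 1.62, 1.03 and 0.72. On the artificial diet arrays paired with them, 3, 1, 2 and 4, it was 0.08, 0.77, 0.08 and 0.45. The order from low to high was black olives, artificial diet and green olives, and neither pair of neighbours passed the adjusted threshold in this model. Contig01313 and contig04780 also kept a single direction within all 4 pairs, and the share of all contigs that do so was not counted. The model took the arrays as independent, and the difference within the pairs of green olive channels was not tested.

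Contig04780, named a reductase, was lowest in black olives, with the widest differences of the 3 contigs in both comparisons with black olives. Its level on the black olive arrays was 12.69, 12.24, 12.46 and 12.47 in green olive larvae (mean 12.46 ± 0.18, SD, n = 4) and 10.87, 10.62, 11.02 and 10.64 in black olive larvae (mean 10.79 ± 0.19, SD, n = 4), without overlap, as for 22.4% of all contigs. The log2 ratios on the 4 arrays were 1.82, 1.62, 1.44 and 1.83. The log2 fold change was 1.68 (SE 0.151, 95% interval 1.33 to 2.02), or 3.2-fold higher in green olives (adjusted p = 0.000509, limma).

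**Figure D1:**
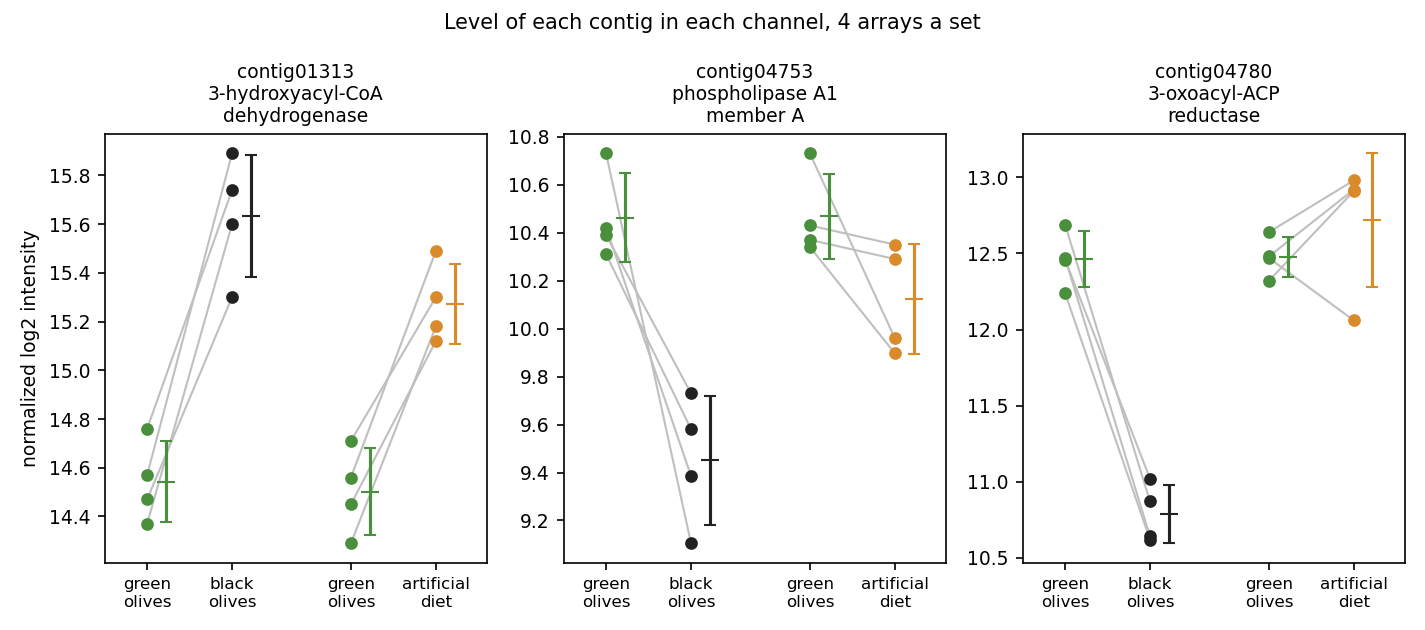
Normalized log2 intensity (vertical axes, a scale of its own for each contig) of the 3 contigs in each channel. Points are channels, grey lines join the channels of an array, and bars beside the points are the mean and SD of 4 arrays. By mean level, contig01313 was lowest in green olives on both sets of arrays, and contig04753 and contig04780 were lowest in black olives. Black olives against artificial diet did not pass the test for contig04753 (adjusted p = 0.146, limma).

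Against artificial diet the ratios of contig04780 lay on both sides of 0. Green olive larvae had levels of 12.32, 12.48, 12.64 and 12.47 (mean 12.48 ± 0.13, SD, n = 4). The larvae on artificial diet had 12.91, 12.92, 12.98 and 12.06 (mean 12.72 ± 0.44, SD, n = 4), so pool 4 lay below all the green olive channels and the other 3 pools above them. The ratios were -0.59, -0.44, -0.34 and 0.41. The log2 fold change of -0.24 (SE 0.151, 95% interval -0.59 to 0.11) did not pass the test (adjusted p = 0.349, limma), and leaving out an array moved it from -0.12 without array 1 (adjusted p = 0.721, limma) to -0.46 without array 4 (adjusted p = 0.0494, limma).

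In the same-dye comparison contig04780 was 3.78-fold lower in black olives than on artificial diet (log2 fold change -1.92, SE 0.213, 95% interval -2.41 to -1.43, adjusted p = 0.00411, limma). The ratios of the sets did not overlap, as for 15.9% of all contigs. The rows of the slide held the sets unequally, with 3 black olive arrays and 1 artificial diet array in row 1 and the reverse in row 2. Within row 1 the difference was -2.22 and within row 2 it was -1.96. Without artificial diet array 4 it was -2.14. The same within-row differences were 0.43 and 0.48 for contig01313 and -0.33 and -0.52 for contig04753.

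**Figure D2:**
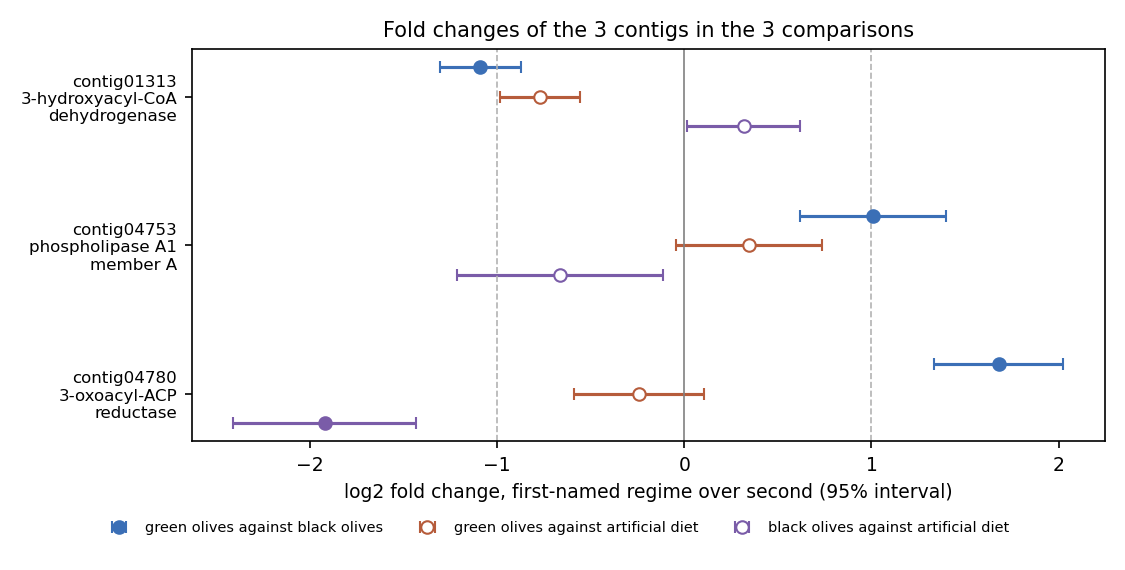
Log2 fold change of the first-named over the second-named regime (horizontal axis) for the 3 contigs, with the 95% interval from limma. Filled points passed both thresholds, open points did not, and dashed lines mark a log2 fold change of 1 in either direction; contig04780 lay beyond them against black olives from both sides, at 1.68 and -1.92.

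The probes of a contig moved together. All 4 probes of contig01313 had negative mean ratios in both sets, from -1.28 to -0.79 against black olives and from -0.96 to -0.62 against artificial diet, and each of the 16 probe values of a set was below 0. For contig04753 the 3 probe means ran from 0.84 to 1.11 against black olives, with 12 of 12 probe values above 0, and from 0.19 to 0.49 against artificial diet, with 10 of 12 above 0. For contig04780 they ran from 1.56 to 1.80 and from -0.37 to -0.14, with 12 of 12 and 3 of 12 values above 0, and the 3 values above 0 against artificial diet were those of array 4. Between black olives and artificial diet the 3 probes of contig04780 differed little, at -1.94 to -1.89. Probes of a contig report on the same pools and are not replicates.

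**Figure D3:**
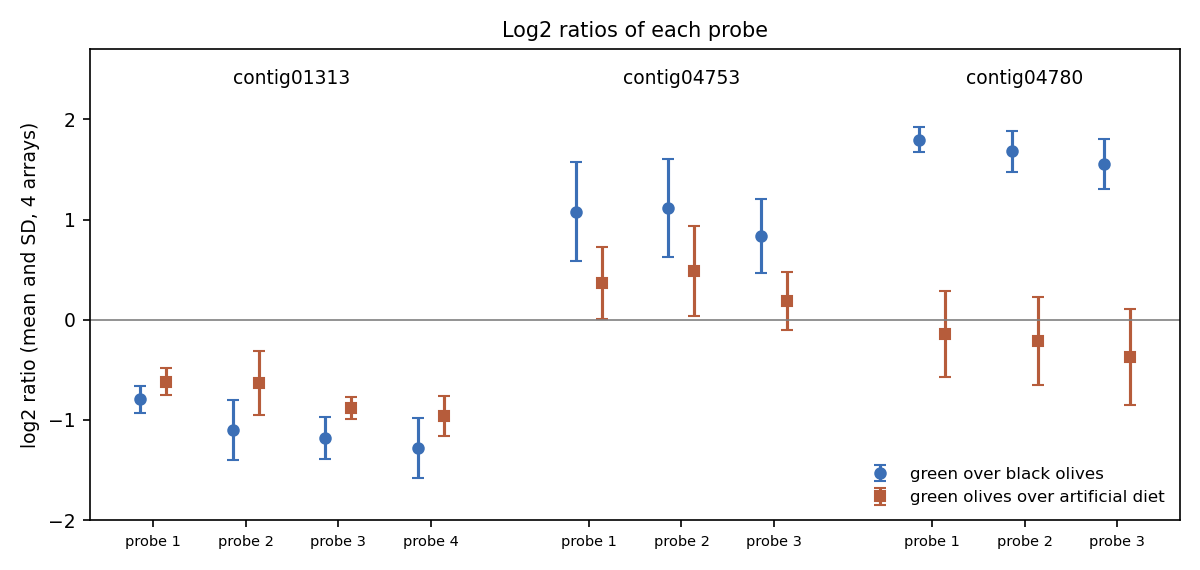
Log2 ratio of green over black olives (circles) and of green olives over artificial diet (squares) for each of the 10 probes. Points and bars are the mean and SD of 4 arrays; within a set, the mean ratios of all probes of a contig had the same sign.

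Another 5 contigs described in the study as enzymes or carriers that make, break or feed lipids were set beside these. All were described because they had been called on these arrays, so their counts are no independent evidence. Between green and black olives 4 of the 5 were lower in green olives and none higher by both thresholds, where 0.512% of all contigs were called lower and 1.74% higher. The 4 were ATP citrate lyase (contig01047), which makes cytosolic acetyl-CoA, at -1.57 on the log2 scale (adjusted p = 0.00163, limma), acetyl-CoA carboxylase (contig01325), which commits it to fatty acid synthesis, at -1.26 (adjusted p = 0.00226), the tricarboxylate transport protein (contig02942), which exports citrate from mitochondria, at -1.03 (adjusted p = 0.00309), and 3-hydroxybutyrate dehydrogenase type 2 (contig04692), named for ketone body use, at -1.61 (adjusted p = 0.00611). The fifth, a secretory phospholipase A2 (contig02547), was at 0.85 and passed the threshold on the p-value only. The median of the 5 was -1.26, against -0.0012 for all contigs. The 4 called contigs had the sign of contig01313 and the opposite sign to contig04780. What these contigs do in the larvae was not tested.

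Between green olives and artificial diet 1 of the 5 contigs was called, contig02547, at 1.06 (adjusted p = 3.3e-05, limma), where 0.77% of all contigs were called higher and 0.283% lower. The contigs of ATP citrate lyase, acetyl-CoA carboxylase and the tricarboxylate transport protein were at -0.91, -0.72 and -0.61, past the threshold on the p-value but not on the size, as was contig01313. Between black olives and artificial diet none of the 5 was called by limma, where 0.327% of all contigs were called higher and 0.609% lower. All 5 had values above 0, from 0.21 to 1.53, as had 10705 of all 20516 contigs. The comparison subtracts the coefficient of green against black olives, which was below 0 in 4 of the 5, so these values are no separate evidence. Of the 5, 3 had an unadjusted p under 0.05 (contig01047, contig02547 and contig04692), and none passed after adjustment.

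The 4 contigs of apolipoprotein D and neural Lazarillo type, which are lipocalins that bind small lipids, had the sign of contig04780 for green against black olives. They too were described because they were called on these arrays. All 4 were called higher in green than in black olives, where 1.74% of all contigs were called higher. Their values ran from 1.11 to 1.81 on the log2 scale with a median of 1.41. Between green olives and artificial diet none was called by limma, where 0.77% of all contigs were called higher and 0.283% lower. There 2 had an unadjusted p under 0.05 and values ran from -0.02 to 0.53. Of the 4, 2 were called lower in black olives than on artificial diet, where 0.609% of all contigs were called lower. These were contig05067 at -1.06 and contig07056 at -1.47, and contig07071 was at -1.65 (adjusted p = 0.0945, limma).

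**Figure D4:**
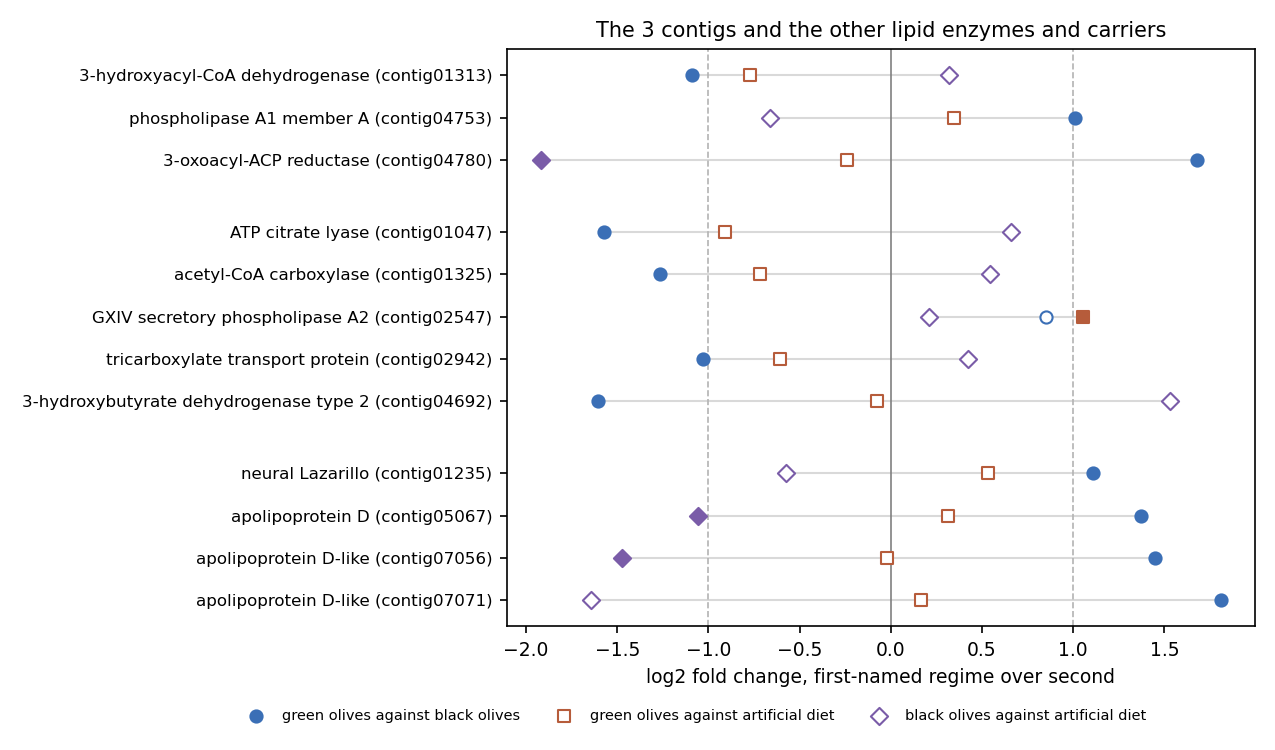
Log2 fold changes (horizontal axis) in the 3 comparisons for the 3 contigs, the 5 other lipid contigs and the 4 lipid carrier contigs. Filled symbols passed both thresholds, open symbols did not, and dashed lines mark a log2 fold change of 1 in either direction; ATP citrate lyase at -1.57 lay on the opposite side of 0 from contig04780 at 1.68 for green against black olives.

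Since contig04780 is of the short-chain dehydrogenase family by its name, 8 other contigs described as short-chain dehydrogenases, reductases or insect alcohol dehydrogenases were compared, 7 of them again described because they were called. The list shares contig04692 with the lipid contigs above, where it is counted too, and contig03652 with the housekeeping contigs. Between green and black olives 5 were called lower in green olives and 1 higher, where 0.512% of all contigs were called lower and 1.74% higher. The higher one was an alcohol dehydrogenase (contig06994, adjusted p = 0.00413, limma), and the median of the 8 was -1.22. In all 4 black olive channels contig06994 was not well above background, so the size of its change was not measured. With the lowest signal well above background on each array as a stand-in for black olives, contig06994 was 4.22-fold higher in green olives. This figure leaves out the spread of the arrays and is open to dye bias. Sepiapterin reductase (contig02227), an enzyme of pteridine synthesis, was at -1.88. Between black olives and artificial diet 1 of the 8 was called, where 0.609% of all contigs were called lower. It was a partial alcohol dehydrogenase (contig02029) at -1.44 (adjusted p = 0.00935, limma), which was also called between green olives and artificial diet at -1.12. For contig02029 the difference between green and black olives was 0.32. By the same floor, contig06994 was at least 1.99-fold lower in black olives than on artificial diet, in the direction of contig04780 but without passing the test (adjusted p = 0.226, limma). Between green olives and artificial diet 2 were called, both lower, where 0.283% of all contigs were called lower. These were contig02029 and an antennal-specific short-chain dehydrogenase (contig02815) at -1.21.

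Across the 8 arrays the log2 ratios of contig04780 correlated at 0.634 with those of contig04753 and at -0.711 with those of contig01313, and contig04753 and contig01313 correlated at -0.348. The 8 points share green olive pools and fall into both sets, whose means differ. The contigs were described for their difference between green and black olives. The correlations therefore restate the set means in part, and are no evidence that the contigs vary together. The contigs whose ratios followed each member most closely were taken from 13979 contigs that were well above background in every channel of at least 1 regime. For contig01313 they were HQ383997.1 at r = 0.981, contig02403 at 0.979 and HQ384038.1 at 0.967. For contig04753 they were contig00197 at 0.989, and contig06340 and contig02309 at 0.987 each. For contig04780 they were the reverse-strand entry rc_contig06567 at 0.992, contig08136 at 0.988 and contig01797 at 0.985. They are the highest of the correlations of 13979 contigs over 8 arrays, so high values follow in part from that choice. Likeness in pattern did not mean likeness in size or sign. Contig08136 differed by 1.21 between green and black olives and by -1.15 between black olives and artificial diet, whereas contig01797 differed by 0.27 and -0.47. For green olives against black olives and against artificial diet, contig02403 was at 0.07 and 0.12, where contig01313 was below 0. Contig06340 was at -0.47 and -1.02 there, where contig04753 was above 0.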

How the data were processed

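Whole-larva RNA was measured on 8 two-colour arrays. The authors deposited unnormalized scanner files, made with Feature Extraction 10.7.3.1 per the file headers (the submitters' processing notes name 10.5). They hold the median intensity of every spot and of its local background. As deposited, processed intensities (corrected by the software) and log10 ratios of Cy5 over Cy3 are held beside them, and the series' value table holds the same log10 ratios to within 0.005. These were used as alternatives.

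Following the study's methods, median intensities were corrected by normexp with an offset of 50, normalized by loess within and Aquantile between arrays, and fitted in limma 3.58.1 (R 4.3.3) with 1 coefficient for each set of 4 arrays. The 1319 control spots were left out after background correction, and outlier spots (46 to 128 an array) had no weight. Probes were averaged per contig. Black olives against artificial diet is the difference of both coefficients, and P-values were Benjamini-Hochberg adjusted over 20516 contigs. The steps from contig ratios to calls were tested on simulated data, with noise independent between arrays and planted changes well beyond the threshold on the size. That test covers neither the pairing of green olive channels nor changes close to the threshold. Precision is limited by the 4 arrays of a set.

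The contigs named are the 3 enzymes, the lists of lipid, lipid carrier, oxidoreductase and housekeeping contigs, and for each enzyme the 3 contigs with the highest correlation over the 8 arrays. The enzymes and lists were chosen with earlier results of these data known. Alternatives covered background correction, signal column, normalization, probe averaging, outlier spots, exclusion of dim contigs, an intensity trend, treat, a separate-channel model, the samples fitted, a replicate block, slide row, the value table and each array left out. Sequences and genome positions of the contigs are not given here.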

Additional observations from a re-analysis of the deposited data

Results flagged for a closer look

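The artificial diet channel of array 4 stood apart from the other 3 for contig04780, at a normalized log2 intensity of 12.06 against 12.91 to 12.98. Of 18 groups of 4 values examined for the 3 contigs, this was the only one in which the gap of an extreme value, relative to the range of the group, exceeded Dixon's 95% critical value, and chance alone passes about 1 group in 20.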

How the results depend on the processing

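The 9 fold changes kept their sign under all alternatives run. Of the 4 calls, each was lost under limma's treat, which asks for a log2 fold change above 1 beyond error: contig01313 at -1.09, contig04753 at 1.01 and contig04780 at 1.68 for green against black olives, and contig04780 at -1.92 for black olives against artificial diet (adjusted p = 0.309 and 0.672 for contig04780). Contig01313 was at -0.96 with median centring in place of loess, and contig04753 was at 0.89 with the slide row as a covariate, both under the threshold on the size; the latter term also moved contig04753 between black olives and artificial diet to -0.43. In the separate-channel model contig01313 and contig04753 passed the p-value threshold between black olives and artificial diet (adjusted p = 0.0439 and 0.00373, limma) but not that on the size. The replicate number as a block left contig04780 at -1.92 between black olives and artificial diet and moved its adjusted p to 0.0506 (limma), and it changed no other call. With the block, 410, 120 and 34 of all contigs were called in the 3 comparisons, against 462, 216 and 192 without it. The numbers do not pair the samples: ratio deviations of same-numbered arrays correlated at -0.726 to 0.457. Leaving out each array gave -1.17 to -1.01 for contig01313, 0.81 to 1.13 for contig04753 and 1.63 to 1.76 for contig04780 between green and black olives, and -2.14 to -1.80 for contig04780 between black olives and artificial diet. Between green olives and artificial diet the ranges were -0.83 to -0.72, 0.20 to 0.43 and -0.46 to -0.12 for the 3 contigs in the same order, and between black olives and artificial diet 0.24 to 0.40 for contig01313 and -0.81 to -0.46 for contig04753. Over all alternatives other than leaving out an array, the share of all contigs called ran from 0.0926 to 4.95%, 0.185 to 4.03% and 0.0829 to 1.68% in the 3 comparisons. The Aquantile step alters intensities and not ratios, so leaving it out changed no value. Without a balanced dye swap, no alternative separates the dyes from green olives. The cause of each lost call was not tested.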
